A study of Mus musculus with 9 samples.

Results

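The genes described here encode the corepressors that ZEB1 is known to work with: the CtBP proteins (Ctbp1, Ctbp2), the CoREST proteins (Rcor1, Rcor2, Rcor3), the Sin3 scaffolds (Sin3a, Sin3b) and the nuclear receptor corepressor Ncor1. ZEB1 is a zinc-finger transcription factor, and its CUT&RUN signal was counted in 23623 consensus peaks. A peak was given to one of these 8 genes if its centre lay inside the gene, or if the nearest boundary of a protein-coding gene, within 50 kb on GRCm38, was that gene's. The rule gave 13 peaks to 6 of the 8 genes, and Rcor2 and Sin3b had none. All 13 passed the filter on low counts, as did 21192 peaks in all. An assigned gene is a neighbour of the peak and not a shown target.

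The cells were PB3, a mouse breast cancer line labelled Er-/Pr-/Her2-. The control group was untreated and its line is labelled PB3-Parental. The 3 other groups received 300 nM eribulin, an inhibitor of microtubule growth, for 24, 48 or 72 h, and their line is labelled PB3_ERI. The labels do not state whether these are the same stock of cells, so the line label and the drug cannot be told apart. Each group had 2 ZEB1 libraries, and 1 further library of untreated cells used IgG. Chromatin occupancy cannot check a receptor status, and the label was taken as given.

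ZEB1 binds paired E-box sequences and silences epithelial genes such as E-cadherin. It does so largely through a short motif that recruits CtBP, a dimeric protein that bridges DNA-bound repressors to enzymes. The CoREST proteins couple the demethylase LSD1 to histone deacetylases, Sin3 proteins scaffold a separate deacetylase complex, and NCoR proteins activate another deacetylase. The question here is whether ZEB1 itself sits at the genes for these partners, and whether that signal differs after eribulin.

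Library totals in the consensus peaks lay between 326944 and 765015 counts, and a corepressor peak held between 3 and 168 counts in a library, with a median of 19.5. Values are given as CPM (counts per 1e6), scaled by the TMM-adjusted total in tested peaks. The median tested peak had a mean of 35.5 CPM over the 8 libraries. Within each group the libraries differed by about as much as counting error, with a chi-square per degree of freedom between 0.931 and 1.06, against 1.12 to 2.28 between libraries of different groups. The labels do not say that replicates came from separate cultures, so p-values here reflect only how these libraries vary, which may be technical. A call below is an adjusted p under 0.05 from edgeR's quasi-likelihood test over all tested peaks, and log2 fold changes are given with standard errors (SE). The 24 h, 48 h, 72 h and mean comparisons share the same control libraries.

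Of the 13 peaks, 7 had their centre within 1 kb of a protein-coding gene's boundary, 6 lay further inside a gene and 0 lay outside. Over all consensus peaks the shares were 28.3, 36.2 and 35.5%. The centres of 5 peaks lay within 200 bases of the annotated 5′ end of Ctbp1, Ctbp2, Rcor1, Rcor3 or Sin3a, and these are called start peaks. The other 8 are named by the distance of their centre into the gene from that end. The gene table used here has no exons, so whether an inner peak is exonic or intronic was not determined.

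RefSeq promoter sequences of GRCm38.p6 matched all 8 genes, with 11 annotated transcript starts between them. The 4 below are shown because the windows of Rcor3, Ctbp1 and the downstream start of Sin3a lie wholly under peaks whose signal was called different, while Sin3b has no peak but the only motif match. They cover chr1:192138075-192138290 on the minus strand, chr5:33275005-33275254 on the minus strand, chr9:57076126-57076375 on the plus strand and chr8:72723020-72723269 on the plus strand, each written 5′ to 3′ on the gene's strand. Capitals mark the motif CAGGTG.
Rcor3: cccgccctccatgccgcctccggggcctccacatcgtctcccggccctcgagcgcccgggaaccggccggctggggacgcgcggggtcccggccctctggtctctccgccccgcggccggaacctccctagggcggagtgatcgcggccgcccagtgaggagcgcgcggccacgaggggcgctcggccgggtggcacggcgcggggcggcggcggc
Ctbp1: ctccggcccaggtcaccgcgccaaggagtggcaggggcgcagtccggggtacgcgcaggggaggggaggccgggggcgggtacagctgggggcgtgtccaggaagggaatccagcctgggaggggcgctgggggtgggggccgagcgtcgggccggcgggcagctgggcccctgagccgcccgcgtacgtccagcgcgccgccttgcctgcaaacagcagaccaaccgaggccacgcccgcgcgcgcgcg
Sin3a, downstream start: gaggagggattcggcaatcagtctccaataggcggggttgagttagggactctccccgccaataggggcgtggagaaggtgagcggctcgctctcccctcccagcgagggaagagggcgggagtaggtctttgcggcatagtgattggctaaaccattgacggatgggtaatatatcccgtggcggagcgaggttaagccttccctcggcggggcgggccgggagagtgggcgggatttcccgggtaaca
Sin3b: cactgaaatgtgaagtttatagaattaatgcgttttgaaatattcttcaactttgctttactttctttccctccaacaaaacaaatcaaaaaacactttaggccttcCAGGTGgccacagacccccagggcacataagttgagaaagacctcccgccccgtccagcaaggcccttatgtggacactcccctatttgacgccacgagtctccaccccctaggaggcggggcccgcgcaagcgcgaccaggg
The E-box motifs searched on both strands were CAGGTG, with CACCTG as its reverse complement, and CAGGTA, with TACCTG. Neither was found in the 250 bases before the other 10 starts. In Sin3b, CAGGTG began 143 bases before the start. Of 32851 annotated promoters, 17.2% held CAGGTG, 10.05% held CAGGTA and 25.4% held either. The match describes only these letters in this window, and the bases of the peaks outside the windows were not read.

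Most promoter windows under peaks held more G and C than the median promoter. The window of Rcor3 was 82.8% G or C with 39 CG steps, that of Ctbp1 77.6% with 31, and that of Rcor1 70.4% with 25. The downstream start of Sin3a had 61.6% and 19 CG steps. The upstream start of Sin3a, of which 96 of 250 bases lay under a peak, was the exception at 50.8%, and no annotated window lay under the Ctbp2 start peak. The median over all promoters was 52.4% with 6 CG steps, and the upper quartile of G and C was 61.2%. Of the 6 windows with no peak, those of Rcor2 (67.6%) and the upstream Ncor1 start (73.6%) were also above it, and the downstream Ncor1 start (36.8%), both Ctbp2 windows (42.4 and 51.6%) and Sin3b (50.8%) were below.

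**Figure D1:**
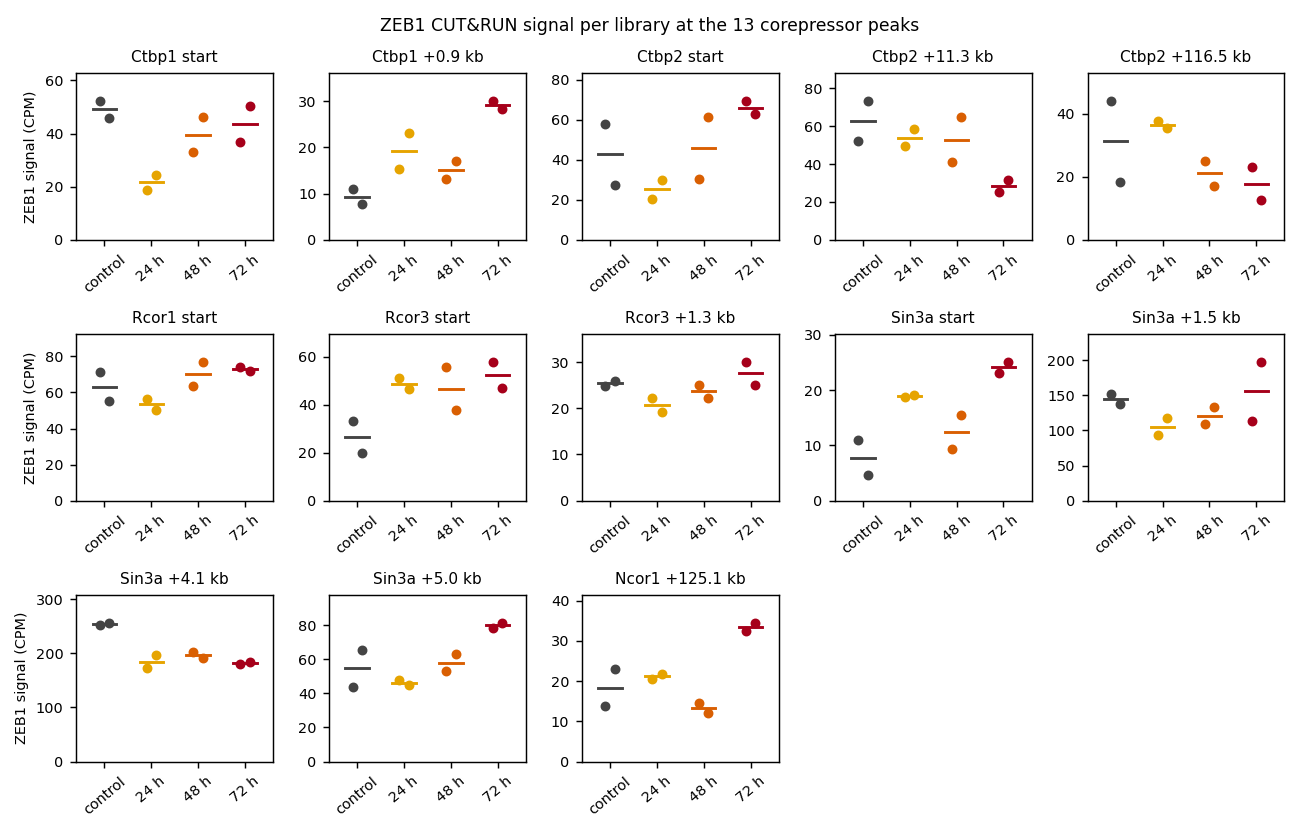
ZEB1 signal in CPM (vertical axis, from 0 and with its own scale in each panel) at the 13 corepressor peaks by group, with 1 point per library and a line at the group mean. In the panel of the Sin3a peak 4.1 kb into the gene the controls sit at 253 and 257 CPM and the 6 treated libraries between 172 and 202, and in that of the Rcor3 start all 6 treated points lie above both controls.

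CtBP1 is the founding CtBP protein, and Ctbp1 lies on the minus strand at chr5:33247723-33275004. Its start peak (chr5:33274776-33275354) read 52.3 and 45.9 CPM in untreated cells, 18.8 and 24.6 after 24 h, 33.1 and 46.2 after 48 h, and 37.0 and 50.2 after 72 h. The 24 h libraries were below every other library, and the 48 and 72 h libraries overlapped the controls. In bulk signal, fewer cells with ZEB1 at a site and less ZEB1 per cell cannot be told apart. The fall at 24 h was -1.12 on the log2 scale (SE 0.322, adjusted p = 0.0128, edgeR). At 72 h the difference from control was -0.18, with a 95% interval from -0.81 to 0.45. The 24 h call was lost without control replicate 1 (-1.05, adjusted p = 0.0641), without control replicate 2 (-1.25, adjusted p = 0.101) and without 24 h replicate 1 (-0.96, adjusted p = 0.106).

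The other Ctbp1 peak, 0.9 kb into the gene (chr5:33274008-33274214), went the other way. It read 11.0 and 7.64 CPM in untreated cells, 15.3 and 23.2 after 24 h, 13.2 and 17.1 after 48 h, and 30.0 and 28.2 after 72 h. All 6 treated libraries were above both controls, as at 12.7% of tested peaks. The rise was called at 72 h (1.70, SE 0.524, adjusted p = 0.0206, edgeR), and the mean of the 3 times missed the threshold (1.19, SE 0.448, adjusted p = 0.0514). Its counts were low, between 4 and 17 per library. Of the authors' deposited peak lists, only that of 72 h held this peak, so its selection may favour a rise at 72 h. The 72 h call was lost without control replicate 2 (1.38, adjusted p = 0.25) and without either 72 h library (1.65, adjusted p = 0.144 without replicate 1; 1.73, adjusted p = 0.0636 without replicate 2). With libraries thinned to the smallest total it was 0.88 (adjusted p = 0.369).

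The balance between the Ctbp1 peaks therefore differed between groups, which was not tested. The inner peak held 17.4 and 14.3% of the gene's counts in untreated cells, 45.0 and 48.6% after 24 h, 28.6 and 27.0% after 48 h, and 44.8 and 36.0% after 72 h. All 6 treated shares were above both control shares, although the controls rest on 4 of 23 and 5 of 35 counts. The limit on the selection of the inner peak, in the 72 h list alone, holds for its shares too. Their 95% Wilson intervals, which cover counting error only, ran from 7.0 to 37.1% and from 6.3 to 29.4%. The gene's summed signal was not called (mean of the 3 times -0.14, 95% interval -0.57 to 0.29).

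CtBP2 is the close relative of CtBP1, and Ctbp2 lies at chr7:132986998-133124009 on the minus strand with 3 peaks. The start peak (chr7:133123937-133124414) also overlaps the predicted gene Gm35364 (chr7:133123555-133128043). It read 57.8 and 27.5 CPM in untreated cells, 20.5 and 30.0 after 24 h, 30.4 and 61.6 after 48 h, and 69.3 and 62.7 after 72 h. Both 72 h libraries were above all others, the 24 h libraries were low, and the controls were far apart. The step from 24 to 72 h, which uses no control library, was 1.36 (SE 0.323, adjusted p = 0.00606, edgeR). The deposited control and 72 h lists held this peak and those of 24 and 48 h did not. Its selection may therefore favour a rise from 24 to 72 h. Against control neither time was called, at -0.57 for 24 h (SE 0.344) and 0.79 for 72 h (SE 0.313, adjusted p = 0.0769). Without control replicate 1 the 72 h difference from control was 1.27 and passed the threshold (adjusted p = 0.0184). The 24 to 72 h call was lost without 24 h replicate 1 (1.14, adjusted p = 0.0864) or 72 h replicate 1 (1.27, adjusted p = 0.0944).

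The peak 11.3 kb into Ctbp2 (chr7:133112334-133112987) is the gene's most covered, and its nearest boundary is that of Gm35364. It read 52.3 and 73.4 CPM in untreated cells, 49.5 and 58.7 after 24 h, 41.0 and 65.0 after 48 h, and 25.4 and 31.4 after 72 h. The 72 h libraries were the lowest of all 8, and the 24 and 48 h libraries overlapped the controls. The fall was called at 72 h (-1.23, SE 0.337, adjusted p = 0.00900, edgeR) and for the mean of the 3 times (-0.62, SE 0.224, adjusted p = 0.0429). The 72 h call was lost without control replicate 2 (-0.91, adjusted p = 0.256), without 72 h replicate 1 (-1.07, adjusted p = 0.143) and with thinned libraries (-1.04, adjusted p = 0.0727). The call on the mean was lost in 9 of 14 alternatives. It was lost with DESeq2 (-0.58, adjusted p = 0.469), with thinned libraries (-0.29, adjusted p = 0.565), with no filter (-0.60, adjusted p = 0.0521) and with summed replicate pairs (-0.62, adjusted p = 0.0544). It was also lost with a replicate block (-0.54, adjusted p = 0.0793) and without control replicate 2 (-0.30, adjusted p = 0.702), 24 h replicate 1 (-0.58, adjusted p = 0.0700), 48 h replicate 1 (-0.51, adjusted p = 0.113) or 72 h replicate 1 (-0.56, adjusted p = 0.102).

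Between 24 and 72 h the difference at this inner peak was -0.96 (SE 0.337, adjusted p = 0.0735, not called), opposite in sign to the called rise at the start. The start held 19.0 and 24.2% of the gene's counts at 24 h and 58.8 and 58.8% at 72 h. In the controls it held 37.5 and 23.1%, below both 72 h libraries. The remaining peak, 116.5 kb into the gene, ranged from 12.5 to 44.0 CPM and was not called in any comparison. The summed signal of Ctbp2 was not called either (mean -0.27, 95% interval -0.56 to 0.03).

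Rcor1 encodes CoREST1, the scaffold first described as the partner of REST. The gene (chr12:111039367-111115902, plus strand) had 1 peak, at its start (chr12:111038923-111039456). It read 71.5 and 55.0 CPM in untreated cells, 56.3 and 50.5 after 24 h, 63.5 and 77.0 after 48 h, and 74.0 and 72.1 after 72 h. The 72 h libraries were just above both controls, the other treated groups overlapped them, and no comparison was called. The mean of the 3 times differed from control by 0.08, with a 95% interval from -0.32 to 0.49, so a change of log2 0.5 or more in either direction lies outside the interval. That holds for the mean only. At single times the intervals were wider, reaching down to -0.69 at 24 h and up to 0.65 at 48 h and 0.79 at 72 h.

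Rcor3, the CoREST paralogue at chr1:192098546-192138074 on the minus strand, had the most regular rise. Its start peak (chr1:192137925-192138444) also overlaps the lncRNA gene Gm10516 (chr1:192136898-192151025). It read 33.0 and 19.9 CPM in untreated cells, 51.2 and 46.4 after 24 h, 55.6 and 37.6 after 48 h, and 57.8 and 47.1 after 72 h. All 6 treated libraries were above both controls, as at 12.7% of tested peaks, and the 3 treated groups overlapped each other. The rise was called at 24 h (0.98, SE 0.320, adjusted p = 0.0326), 48 h (0.95, SE 0.320, adjusted p = 0.0371) and 72 h (1.11, SE 0.355, adjusted p = 0.0264), and for the mean of the 3 times (1.01, SE 0.280, adjusted p = 0.00663). Between 24 and 72 h it differed by 0.13, with a 95% interval from -0.43 to 0.70.

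The size of this rise depended on control replicate 2, the lowest library at 19.9 CPM. Without it the mean difference at the Rcor3 start was 0.58 (adjusted p = 0.451), and the values at 24, 48 and 72 h were 0.55, 0.52 and 0.68 (adjusted p = 0.546, 0.567 and 0.410). The 24 h call was also lost without 24 h replicate 1 (0.91, adjusted p = 0.133) or replicate 2 (1.04, adjusted p = 0.0999). The 48 h call was lost without 48 h replicate 1 (0.61, adjusted p = 0.415) and with a replicate block (0.87, adjusted p = 0.0621), and the 72 h call without 72 h replicate 1 (0.93, adjusted p = 0.258). With thinned libraries the values at 24, 48 and 72 h were 1.15, 1.01 and 0.93 and were not called (adjusted p = 0.0868, 0.156 and 0.165). The call on the mean was kept when any other library was left out.

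The other Rcor3 peak, 1.3 kb into the gene, lay between 19.1 and 30.0 CPM in all libraries and was not called, with a mean difference of -0.10 (95% interval -0.72 to 0.53). The start held 57.1 and 43.3% of the counts of both peaks in the controls and between 62.9 and 70.8% in the 6 treated libraries. Summed over both peaks, Rcor3 was not called (mean 0.48, SE 0.216, adjusted p = 0.0966). Rcor2, which encodes CoREST2 (chr19:7267394-7275225, plus strand), had no consensus peak, and the nearest lay 26.2 kb away at the boundary of Naa40.

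**Figure D2:**
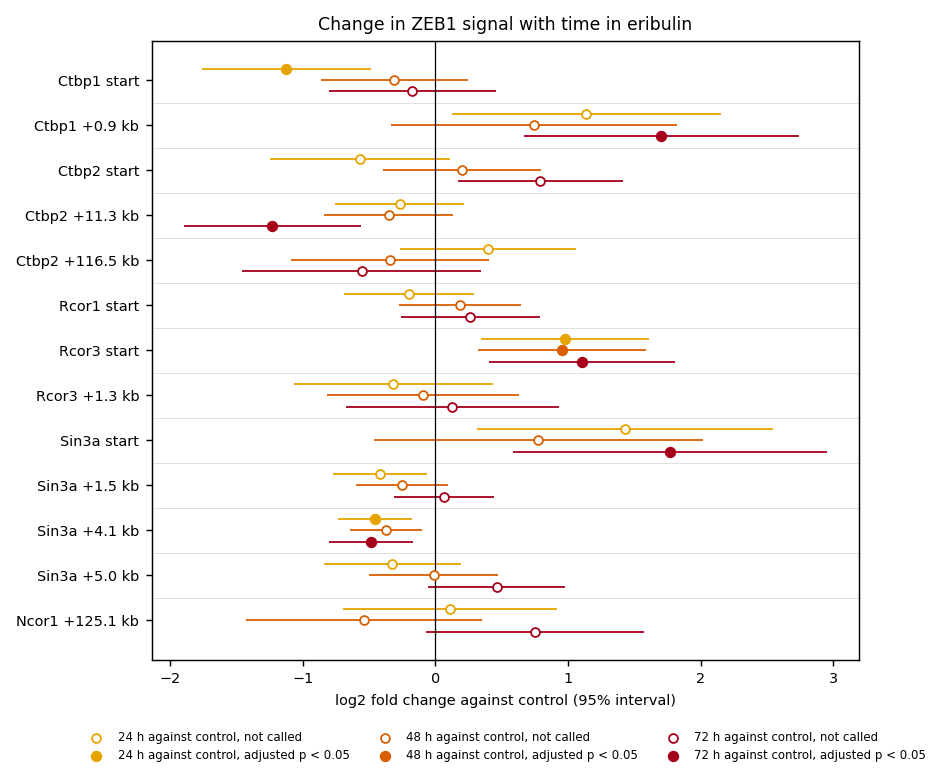
Log2 fold change against control (horizontal axis, lines show 95% intervals) of the 13 corepressor peaks at 24, 48 and 72 h, with filled points where the adjusted p was under 0.05. The Rcor3 start is filled at all 3 times above 0, and the Sin3a peak at 4.1 kb lies below 0 at all 3 and is filled at 24 and 72 h.

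Sin3a carried the strongest signal of the 8 genes. It encodes the main scaffold of the Sin3 deacetylase complex and lies at chr9:57071991-57128368 on the plus strand. It had 4 peaks, all within about 5 kb of its 5′ end, and 6.78% of protein-coding genes had as many or more. RefSeq places transcript starts at 57072040 and 57076376. The peak over the downstream start, 4.1 kb into the gene (chr9:57075645-57076444), had a mean of 205 CPM and stood at the 99.3rd percentile of all tested peaks, also per kb of peak (256 CPM per kb). It overlaps the lncRNA gene 2700012I20Rik (chr9:57075203-57076049).

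The peak was lower after treatment. It read 253 and 257 CPM in untreated cells, 172 and 198 after 24 h, 202 and 192 after 48 h, and 180 and 185 after 72 h. All 6 treated libraries were below both controls, as at 12.5% of tested peaks, and among the treated libraries the 48 h pair was above the 72 h pair while the 24 h pair overlapped both. The difference was -0.46 at 24 h (SE 0.140, adjusted p = 0.0207), -0.37 at 48 h (SE 0.138, adjusted p = 0.0617, not called) and -0.49 at 72 h (SE 0.159, adjusted p = 0.0303), and -0.44 for the mean (SE 0.118, adjusted p = 0.00517, edgeR). Between 24 and 72 h it was -0.03, with a 95% interval from -0.35 to 0.29.

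Over the alternatives the mean value at this peak stayed between -0.49 and -0.40, and the 72 h value between -0.51 and -0.47. The 24 h value ranged more widely, from -0.58 to -0.37, and all of these calls were lost in some alternatives. Without control replicate 2 the mean was -0.43 (adjusted p = 0.149), the 24 h value -0.45 (adjusted p = 0.193) and the 72 h value -0.48 (adjusted p = 0.167). Without control replicate 1 the 24 and 72 h calls were lost as well (-0.46, adjusted p = 0.0610; -0.49, adjusted p = 0.0642). The 24 h call was also lost without 24 h replicate 1 (-0.37, adjusted p = 0.175), and the 72 h call without 72 h replicate 1 (-0.47, adjusted p = 0.187) or replicate 2 (-0.51, adjusted p = 0.0933). With thinned libraries the 24 h, 72 h and mean values were -0.37, -0.51 and -0.40 (adjusted p = 0.252, 0.0695 and 0.0686), and with summed replicate pairs the 24 and 72 h values were -0.45 and -0.50 (adjusted p = 0.0934 and 0.0742).

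The Sin3a start peak (chr9:57071944-57072223), over the upstream transcript start and the end of the lncRNA gene Gm10658, was weak. It read 11.0 and 4.59 CPM in untreated cells, 18.8 and 19.1 after 24 h, 9.26 and 15.4 after 48 h, and 23.1 and 25.1 after 72 h. Both 24 h and both 72 h libraries were above both controls, and the 48 h libraries overlapped them. The rise was called at 72 h (1.77, SE 0.599, adjusted p = 0.0368), and was 1.43 at 24 h (SE 0.564, adjusted p = 0.0834) and 1.33 for the mean (SE 0.508, adjusted p = 0.0571, edgeR). The controls held 4 and 3 counts here. Only the deposited list of 72 h held the Sin3a start, so its selection may favour a rise at 72 h. The 72 h call was lost without control replicate 2 (1.10, adjusted p = 0.412), 72 h replicate 1 (1.83, adjusted p = 0.143) or 72 h replicate 2 (1.71, adjusted p = 0.129). With libraries thinned to the smallest total it was 0.85 (adjusted p = 0.461).

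Between these lay a strong peak at 1.5 kb, with a mean of 132 CPM (96.4th percentile) and libraries from 93.8 to 198, and downstream a peak at 5.0 kb with libraries from 44.0 to 81.6. Neither was called. For the peak at 5.0 kb the 72 h libraries, at 78.6 and 81.6 CPM, were the highest of the 8, and the step from 24 to 72 h was 0.79 (SE 0.260, adjusted p = 0.0573). The peak at 1.5 kb stepped by 0.48 (SE 0.193, adjusted p = 0.119), and without 72 h replicate 1 that value was 0.88 and passed the threshold (adjusted p = 0.0271).

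**Figure D3:**
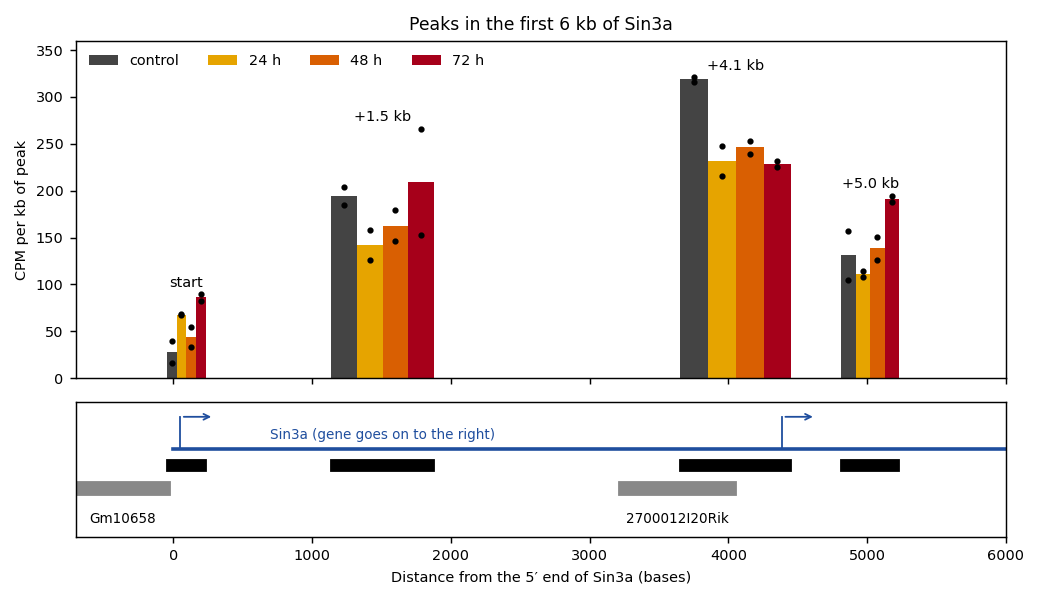
Signal per kb of peak at the 4 Sin3a peaks (upper panel; the 4 bars within a peak are the group means and not sub-regions, dots are the 2 libraries) by distance in bases from the gene's 5′ end, over a map of the gene line, the peaks in black, lncRNA genes in grey and arrows at annotated transcript starts. At the downstream start the 3 treated bars are below the control bar, and at the upstream start they are above it.

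Sin3a was the only one of the 6 genes whose summed signal was called. Its 4 peaks together gave 512 and 523 CPM in untreated cells, 369 and 416 after 24 h, 396 and 436 after 48 h, and 405 and 497 after 72 h. All 6 treated libraries were lower than both controls, and the share of all genes where this held is not given here. The peak at 4.1 kb held between 37.8 and 55.3% of these counts in a library, so the sum partly repeats its result. The difference of the sum was -0.39 at 24 h (SE 0.101, adjusted p = 0.00209), -0.33 at 48 h (SE 0.0991, adjusted p = 0.0116), -0.22 at 72 h (SE 0.109, adjusted p = 0.140, not called) and -0.31 for the mean (SE 0.0843, adjusted p = 0.00255, edgeR). Over all 9824 genes tested on summed peaks, 14.5, 15.3, 19.0 and 20.9% were called in either direction in these comparisons. Without control replicate 2 the sum was not called at 24 h (-0.37, adjusted p = 0.0964), 48 h (-0.31, adjusted p = 0.177) or for the mean (-0.29, adjusted p = 0.144). The 24 h call was also lost without 24 h replicate 1 (-0.32, adjusted p = 0.0685), and the 48 h call without 48 h replicate 1 (-0.25, adjusted p = 0.173). With thinned libraries the sum was -0.35, -0.32 and -0.27 at 24 h, at 48 h and for the mean (adjusted p = 0.0941, 0.115 and 0.0780), and with DESeq2 -0.40, -0.32 and -0.31 (adjusted p = 0.150, 0.334 and 0.158).

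The balance within Sin3a also differed between groups, as a description with no test. The peak at the downstream start held 55.1 and 55.3% of the gene's counts in untreated cells, 51.8 and 52.2% after 24 h, 54.3 and 47.5% after 48 h, and 45.6 and 37.8% after 72 h. Every treated library was below both controls, and the 72 h libraries were the lowest. The 95% Wilson intervals were 47.5 to 62.4% and 49.6 to 60.8% for the controls and 38.3 to 53.1% and 30.6 to 45.6% at 72 h, so 1 of the 72 h libraries overlapped them, as did all the 24 and 48 h libraries. Sin3b, the paralogue at chr8:72723270-72758203 on the plus strand, had no consensus peak, and the nearest lay 39.9 kb away.

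**Figure D4:**
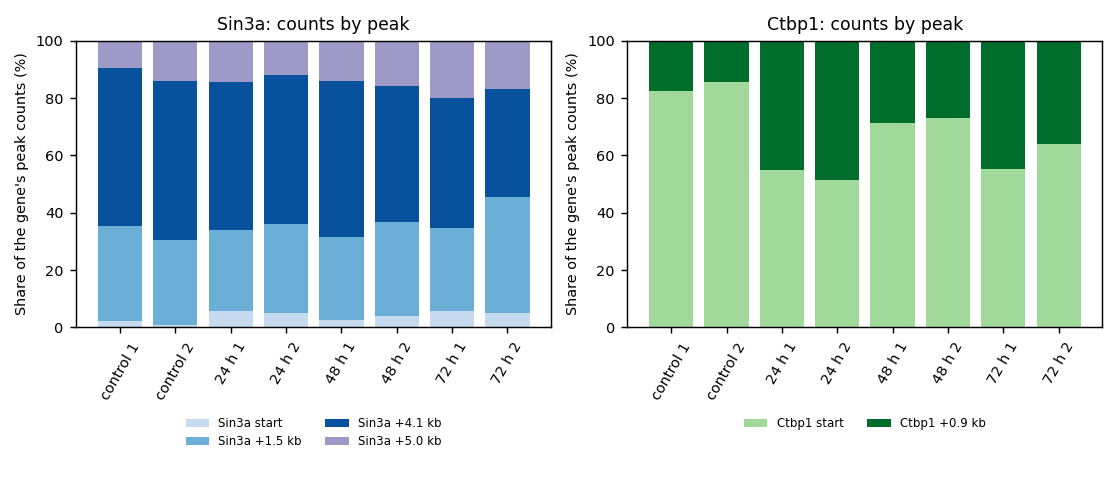
Share of a gene's peak counts, in percent, held by each of the 4 Sin3a peaks (left) and the 2 Ctbp1 peaks (right) in each of the 8 libraries, as stacked bars. The inner Ctbp1 peak holds 14.3 and 17.4% in the controls and between 27.0 and 48.6% in the treated libraries, and Sin3a's peak at 4.1 kb is lowest at 72 h, at 45.6 and 37.8%.

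NCoR1 joins nuclear receptors and other repressors to a histone deacetylase. Ncor1 (chr11:62315663-62457414, minus strand) is the longest of the 8 genes, yet it had a single peak (chr11:62332231-62332477), 125.1 kb from its 5′ end and 475 bases from the boundary of Ttc19, which overlaps Ncor1. It read 13.8 and 22.9 CPM in untreated cells, 20.5 and 21.8 after 24 h, 14.6 and 12.0 after 48 h, and 32.4 and 34.5 after 72 h. The 72 h libraries were the highest and the 48 h libraries overlapped the controls. Only the deposited list of 72 h held this peak. No comparison was called, with 0.75 at 72 h (95% interval -0.07 to 1.58, adjusted p = 0.235, edgeR). No peak was assigned to either annotated start of Ncor1.

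Counted by comparison, calls among the corepressor peaks fell on both sides at 24 h, at 72 h and for the mean, and 13 peaks are too few to set their share apart from that of all peaks. At 24 h 1 was higher and 2 lower of 13, against 6.44 and 4.61% of all tested peaks. At 48 h 1 was higher and 0 lower (6.09 and 5.41%). At 72 h 3 were higher and 2 lower (6.84 and 5.74%). Among those higher, the inner Ctbp1 peak and the Sin3a start were in the deposited 72 h list alone. For the mean of the 3 times 1 was higher and 2 lower (8.27 and 8.53%). From 24 to 72 h 1 was higher and 0 lower (2.32 and 2.39%). At an unadjusted p under 0.05 in either direction the numbers of 13 were 6 at 24 h, 2 at 48 h, 6 at 72 h, 6 for the mean and 6 from 24 to 72 h, against 25.6, 26.4, 27.9, 30.7 and 21.3% of all tested peaks. In all, 7 of 13 were called in at least 1 comparison and 6 in none, against 26.4% of all tested peaks called in at least 1. DESeq2 called 0 of the 13 in each of the 5 comparisons, with 2, 0, 5, 2 and 2 at an unadjusted p under 0.05 in the order above, so every call given here rests on edgeR. With all libraries thinned to the smallest total, edgeR called 1, 0, 0, 1 and 2.

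The median log2 difference of the 13 peaks was -0.27 at 24 h, -0.10 at 48 h, 0.26 at 72 h and 0.04 for the mean, against medians within 0.01 of 0 over all tested peaks. The 7 peaks at gene boundaries had a median of 0.79 at 72 h, against 0.37 over the 6027 boundary peaks of the series. The median of the boundary peaks was 0.11 against 0.06 at 24 h, 0.20 against 0.20 at 48 h and, the other way, 0.14 against 0.21 for the mean. From 24 to 72 h the median was 0.46 over the 13 peaks and 0.57 over the boundary peaks (0.32 over all boundary peaks). The inner Ctbp1 peak, the Sin3a start and the Ncor1 peak, all boundary peaks, were in the deposited 72 h list alone. Their selection may favour a rise at 72 h, and so may raise the medians at 72 h and from 24 to 72 h. The boundary peaks of the whole series thus also had a positive median at 72 h.

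The authors' deposited peak lists, 1 per group, were called against IgG in the same groups and are no independent check of the counts. Every consensus peak was in at least 1 list, so presence in some list was fixed in advance. Of the 13 peaks, 10 were in the control list (18749 entries) and 7 in the 24 h list (15163 entries). The 48 h list (14479 entries) held 7 and the 72 h list (12420 entries) held 10. Shares over all consensus peaks are not given list by list, so equal counts from lists of unequal length cannot be equated. All 4 lists held 5 of the 13 peaks, namely the starts of Rcor1 and Rcor3 and the Sin3a peaks at 1.5, 4.1 and 5.0 kb. The inner Ctbp1 peak, the Sin3a start and the Ncor1 peak were in the 72 h list alone, and the Rcor3 peak at 1.3 kb in the control list alone. The Ctbp2 start was in the control and 72 h lists. Only the 24 h list lacked the Ctbp1 start, and only the 72 h list lacked the Ctbp2 peak at 11.3 kb. Each was called lower at that time. Over all consensus peaks 34.7% were in 4 lists and 32.4% in 1. The lists differ in length, from 12420 to 18749 entries, so an absence shows only that a threshold was not reached.

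In the authors' deposited lists the fold over IgG at the Rcor3 start was 4.26 in control, 6.83 at 24 h, 10.01 at 48 h and 9.27 at 72 h. At the Sin3a downstream start it was 29.0 in control, 13.1 at 24 h, 25.1 at 48 h and 11.9 at 72 h. These folds describe a peak within its own list and were not compared between lists. The control list gives the Sin3a peaks at 4.1 and 5.0 kb 1 peak name and identical values, so the fold of 29.0 belongs to a wider original peak. Such shared names cover 1.08% of the control entries, 1.73% at 24 h, 3.61% at 48 h and 2.45% at 72 h.

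Genes for other subunits of these complexes were read by the same rule. Of 37 such genes, 35 had 87 peaks, of which 74 passed the filter, and Arid4b and Zmym3 had none. For the mean of the 3 times 6 were higher, 7 lower and 61 not called, with a median of -0.07. Of all tested peaks, 8.27 and 8.53% were called higher and lower. By complex, the CoREST and CtBP partners had 3 higher and 4 lower of 38 (median -0.13), the NCoR partners 3 and 3 of 19 (-0.14), and the Sin3 partners 0 of 17 (0.06). At 24 h the 74 peaks gave 4 higher and 5 lower, at 48 h 2 and 3, at 72 h 6 and 2, and from 24 to 72 h 4 and 0, where all tested peaks gave 6.44 and 4.61%, 6.09 and 5.41%, 6.84 and 5.74%, and 2.32 and 2.39%.

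Rreb1 encodes a zinc-finger protein found with CtBP. Its called peak (chr13:37783704-37784544) read 116 and 115 CPM in the controls and between 62.7 and 80.9 in the 6 treated libraries. All were lower, as at 12.5% of tested peaks (mean -0.65, SE 0.167, adjusted p = 0.00310, edgeR). The other tested Rreb1 peaks were not called for the mean, at -0.19 (adjusted p = 0.790) and 0.05 (adjusted p = 0.941). The Wiz peak, near a zinc-finger partner of the G9a methyltransferase, read 5.50 and 6.11 CPM in the controls and between 19.1 and 29.1 in the treated libraries. All were higher, as at 12.7% of tested peaks (mean 1.92, SE 0.483, adjusted p = 0.00270, edgeR). This peak was weak, with a mean of 18.9 CPM against 35.5 for the median tested peak, and its control values rest on few counts. How the partner calls hold under the alternatives is not given here. A peak at the deacetylase gene Hdac1 was higher at 72 h (0.98, SE 0.328, adjusted p = 0.0347, edgeR). For the mean of the 3 times that Hdac1 peak was not called (0.40, adjusted p = 0.344).

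**Figure D5:**
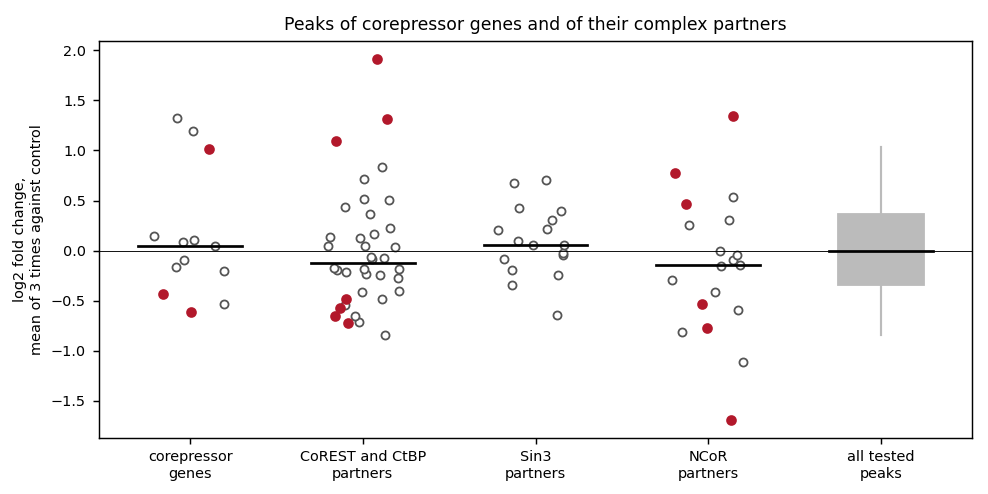
Log2 fold change, mean of the 3 times against control (vertical axis), of each tested peak of the corepressor genes and of their complex partners, with red points for called peaks and black lines at medians, beside the median, 25 to 75% box and 5 to 95% line of all tested peaks. Red points lie on both sides of 0 for the corepressors and for the CoREST, CtBP and NCoR partners, and the Sin3 partners have none.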

How the data were processed

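ZEB1 CUT&RUN (EpiCypher CUTANA kit, paired-end reads of 76 bases, per the labels' protocols) was measured in 8 libraries, 2 in each of 4 groups, and 1 IgG library entered no test. The submitters' processing notes list these tools with no role or order: MACS2 2.1.1, bedtools 2.30.0, featureCounts, Bowtie2 2.2.6, Picard, deepTools, cutadapt 2.4 and bcl2fastq 2.20.0.422, and the build GRCm38 (mm10). Raw counts per consensus peak were deposited unscaled in 1 table. Each group has 1 deposited peak list, with the authors' fold over IgG (a ratio) and the −log10 of q from their peak caller. Peak names in a list carry replicate 1 only, and the use made of replicate 2 is not stated.

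The main test was run in edgeR 4.0.16 (R 4.3.3) with filterByExpr by group (21192 peaks kept, 2431 untested), TMM (factors 0.994 to 1.01), and a robust quasi-likelihood F-test with 1 mean per group and 4 residual degrees of freedom, Benjamini-Hochberg adjusted over all peaks with a threshold of 0.05. Counts summed per gene were tested the same way over 9824 genes. SEs are the fold change over the square root of F. Each value is relative to the rest of its library, so a shift common to all peaks would be missed. The test was checked on simulated counts, with large changes planted in all treated libraries at better covered peaks. Smaller changes, lower counts and changes at a single time were not checked. Alternatives were DESeq2 1.42.0, other size factors, no filter, thinning to the smallest total, each library left out, a replicate block, a tighter peak assignment, stricter peak lists and, added after seeing the data, summed replicate pairs.

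Genes came from the RefSeq table of GRCm38.p6, and coverage tracks were not analysed here. The gene members, partner lists and naming rule were chosen with earlier results of these data known. Values are given for every member peak that was called and for each gene's most covered peak, others by range. The rule also names the 3 peaks of other genes most like the member peak with the smallest p. Some genes that the lists or this rule would name are not reported here by name.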

Additional observations from a re-analysis of the deposited data

Results flagged for a closer look

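The Ctbp2 start peak differed between treated time points by a test of that difference itself. From 24 to 72 h its log2 difference was 1.36 (SE 0.323, adjusted p = 0.00606, edgeR), with 20.5 and 30.0 CPM at 24 h and 69.3 and 62.7 at 72 h. The peak also overlaps the predicted gene Gm35364, and the signal cannot be divided between the genes. The deposited control list and, among the treated groups, only the 72 h list held this peak. Its selection may therefore favour a rise from 24 to 72 h. The call was lost without 24 h replicate 1 (1.14, adjusted p = 0.0864) and without 72 h replicate 1 (1.27, adjusted p = 0.0944).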

How the results depend on the processing

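Over 224 pairs of a called log2 value and an alternative, the sign changed in 0, and it changed in 51 pairs where neither value was called. The called values were picked for a low adjusted p and refitted on largely the same counts. A kept sign was therefore likely in advance and is no separate check of direction. DESeq2 called 0 corepressor peaks in all 5 comparisons (2, 0, 5, 2 and 2 of 13 at an unadjusted p under 0.05 for 24 h, 48 h, 72 h, the mean and 72 h against 24 h; between 4 and 9 had no adjusted p) and 0 genes on summed peaks; over all peaks it called 90, 76, 115, 231 and 5, against 2341, 2437, 2666, 3559 and 999 in edgeR. Thinned to 326944 counts, the corepressor calls were 1, 0, 0, 1 and 2 in the same order, with 0 genes, and 765, 767, 1509, 1651 and 405 over all peaks. Leaving out each library in turn gave 0 to 3 calls at 24 h, 0 to 1 at 48 h, 0 to 5 at 72 h, 0 to 4 for the mean, 0 to 1 from 24 to 72 h and 0 to 1 genes. Without control replicate 2 every comparison with control had 0, and all-peak calls fell to 479, 493, 684 and 625. The replicate block left 0 calls at 48 h and 3, 5, 2 and 1 in the others, with 1 gene. Replicate numbers did not pair the libraries, with correlations of their deviations between -0.0302 and 0.00100. Summed replicate pairs gave 2, 1, 4, 2 and 1 calls, and 1892, 2090, 2200, 3106 and 657 over all peaks. When a −log10 q of 5 or more was required, the share of corepressor peaks in the 72 h list was 46.2% in place of 76.9%. The shallow counts, with a median of 19.5 per peak and library, limit what can be detected: the 95% interval of the mean difference at the Sin3a start ran from 0.32 to 2.33.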

Other observations

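The corepressor peak with the smallest p for the mean of the 3 times was Sin3a's at 4.1 kb. Among 8286 tested peaks of other protein-coding genes with at least the median CPM, the peaks whose log2 CPM followed it most closely over the 8 libraries included those at Gm52612 (Pearson r = 0.974) and Ttc17 (r = 0.968). Their differences for the mean of the 3 times were -0.83 and -0.81 on the log2 scale. The 8 points share the depth of their libraries, the peaks were chosen as the highest of many, and the values are a description.

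Peaks of the genes beside Rcor3 and Sin3a, singled out after their values were seen, lay close by and were not called. A peak 45 bases from the boundary of Traf5, 5.9 kb from Rcor3, had a mean of 32.9 CPM and a mean difference of 0.35 (adjusted p = 0.433, edgeR). A peak 535 bases from the boundary of Man2c1, 2.8 kb from Sin3a, had 18.4 CPM and 0.94 (adjusted p = 0.112).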
